A study of Bos taurus with 27 samples.

Results

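Circadian clock genes form the transcriptional loop that keeps daily time in most mammalian cells. Of 10 genes chosen by name (ARNTL, CLOCK, NPAS2, PER1, PER2, PER3, CRY1, CRY2, NR1D1 and DBP), 8 had a probe, 1 each, among 15008 probes carrying 14952 gene names on a bovine oligonucleotide array. No probe carried the names CLOCK or CRY2, which are not analysed here. The lining of the rumen, a stratified epithelium, was biopsied from the same 9 castrated and fistulated Japanese Black cattle at 3 fattening stages. The early stage was sampled at 14 months of age, the middle stage at 21 months and the late stage at 29 months, with 9 arrays of 1 color at each stage and 27 in all. All cattle ate concentrate and rice straw, and the share of concentrate in the diet differed between stages, so stage, age and diet cannot be told apart. The hour of biopsy is not given in the sources used here.

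In the clock, ARNTL (also called BMAL1) pairs with CLOCK or its paralogue NPAS2, and the dimer activates genes with E-box elements, among them the PER, CRY, NR1D1 and DBP genes. PER and CRY proteins return to the nucleus and inhibit the dimer, and NR1D1 (REV-ERB alpha) represses ARNTL, so that in many tissues ARNTL RNA peaks at about the opposite phase to NR1D1, DBP and the PER genes. Epithelia of the digestive tract are known to hold such a clock, which responds to feeding time.

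The array probes of 4 genes are printed because ARNTL and the called changes of PER2, PER3 and CRY1 set beside it rest on them; each is the 5′ to 3′ strand of the RNA, and capitals mark the longest run of bases that also lies in a probe of another gene. Coordinates are on bosTau6 (UMD 3.1) as the scanner output gives them. The ARNTL probe lies at chr15:39841360-39841419, the PER2 probe at chr3:118206584-118206643, the PER3 probe at chr16:46429965-46430024 and the CRY1 probe at chr5:70606116-70606175, all on the minus strand.
ARNTL: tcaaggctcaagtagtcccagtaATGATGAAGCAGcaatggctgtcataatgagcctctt
PER2: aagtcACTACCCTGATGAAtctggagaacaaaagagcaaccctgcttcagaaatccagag
PER3: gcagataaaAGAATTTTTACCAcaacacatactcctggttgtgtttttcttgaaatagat
CRY1: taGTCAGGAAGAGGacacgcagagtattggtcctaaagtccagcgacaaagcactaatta
The run shared with another gene's probe was 12 bases for ARNTL and CRY1, 13 for PER3 and 14 for PER2, of 60 bases in each. The 3 PER genes thus had probes with no long sequence in common. GC content was 31.7% in the PER3 probe and 45% in the other 3 that are printed. The accessions of 7 of the 8 probes were matched to a current gene symbol, and that of PER3 kept the name of the array design.

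Brightness of the arrays differed between stages. The median processed intensity of early arrays was 35.2 to 48.6, that of middle arrays 8.22 to 28.7 and that of late arrays 32.2 to 47.0. The share of probes well above background, as the scanner software calls it, was 68.8% to 78.1%, 48.5% to 71.5% and 68.4% to 73.7% in the same order. Levels are therefore given as log2 of the processed signal minus the median of the array. On this scale the median change of all probes was 0.32 from the early to the middle stage (first period), −0.27 from the middle to the late stage (second period) and 0.03 from the early to the late stage (total period). The 2040 probes that were well above background on no array had median changes of 1.33, −1.39 and −0.03, while the 6797 that were so on each of the 27 arrays had 0.08, 0.10 and 0.14. Only PER1 and DBP, among the 8 clock genes, belonged to the latter. The changes of the dim members therefore stand beside these shifts.

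In the first period, limma with the animal as block called 2 of the 8 clock genes higher (NPAS2 and PER3), against 45.26% of all probes, and 2 lower (ARNTL and CRY1), against 21.28% of all probes. In the second period 1 was higher (ARNTL), against 26.96%, and 3 were lower (PER1, PER2 and PER3), against 44.56%. In the total period 0 of 8 were called higher by limma, against 11.19%, and 1 was lower (PER2), against 8.929%. At an unadjusted *P* under 0.05 limma had 1 member higher and 3 lower in the total period. The methods' t-test had 1 higher and 2 lower after adjustment, and 2 higher and 2 lower before it. The median change of the 8 genes was 0.25, −0.16 and −0.13 in the first, second and total periods, beside the 0.32, −0.27 and 0.03 of all probes. With 8 genes, these counts are near or below the shares of all probes and are no result about the clock as a group, and the middle arrays enter both of the first 2 comparisons. In bulk biopsies, fewer cells of a type and less RNA per cell cannot be told apart.

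**Figure D1:**
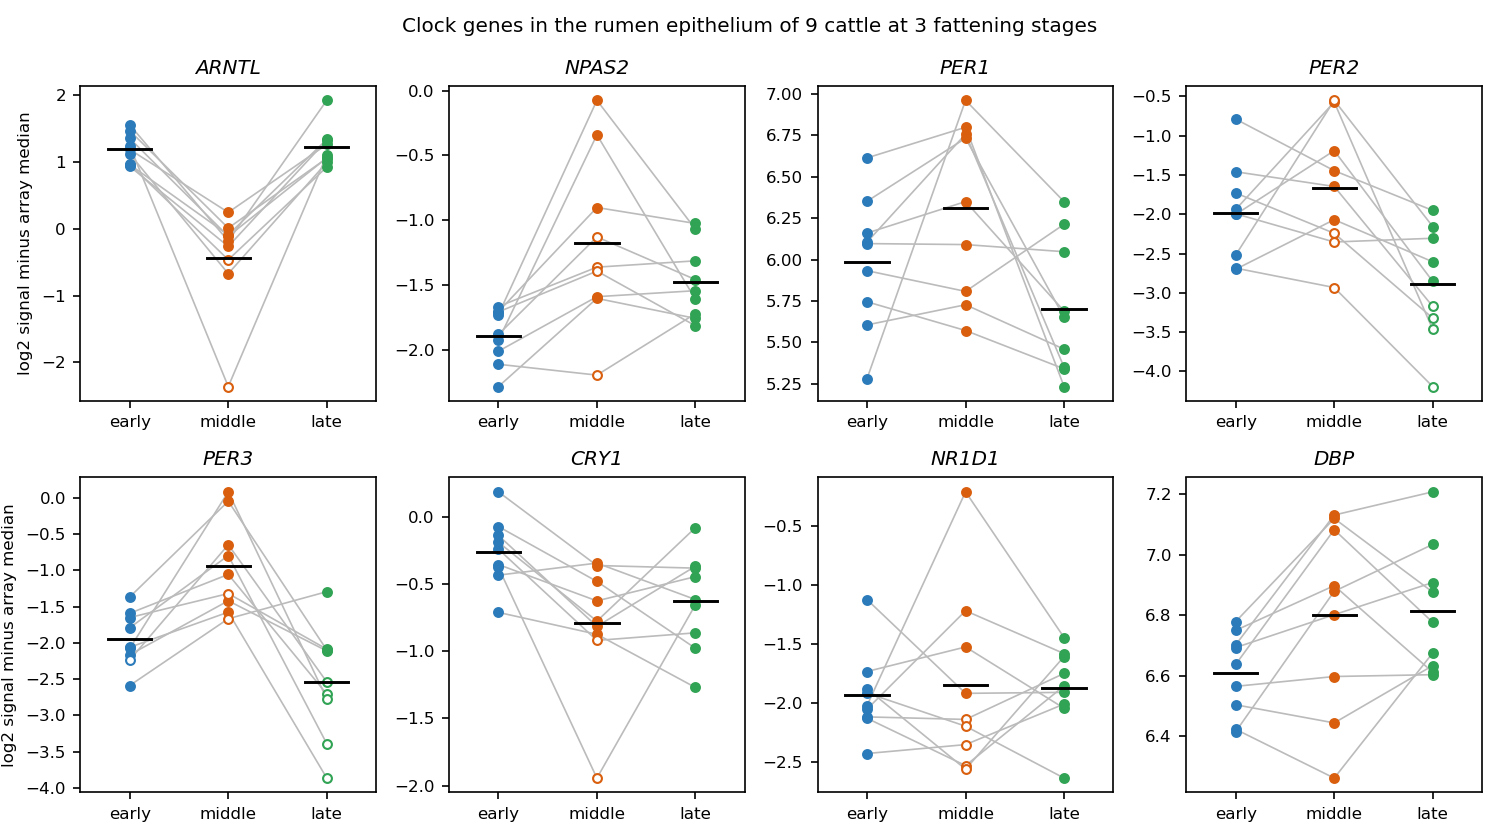
Level of each of the 8 clock genes (log2 processed signal minus array median, y axis) at the early, middle and late stages (x axis) in 9 cattle. Gray lines join the arrays of an animal, black bars are means, and open circles are arrays on which the probe was not well above background; ARNTL is lower at the middle stage in all 9 cattle, and its middle values do not overlap those of the other stages.

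ARNTL, the activator that the dimer cannot do without, had the clearest difference. Its level was lowest at 0.94, median 1.19 and highest at 1.56 at the early stage. Middle values were −2.36, −0.18 and 0.25, and late values 0.93, 1.102 and 1.92. All 9 middle values lay below all early and all late values, and the early and late ranges overlapped. Without scaling, its processed intensity was 69.3 to 103 on early arrays, 1.57 to 28.0 on middle arrays and 65.6 to 131 on late arrays; the middle arrays were dimmer as a whole, so this separation without scaling is no evidence of its own. The probe was well above background on all 9 early and all 9 late arrays and on 7 of 9 middle arrays; those of animals 4 and 9 were the exceptions.

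From the early to the middle stage ARNTL fell by 1.63 ± 0.21 (SE, n = 9, limma adjusted *P* = 4.27e-06), lower in 9 of 9 cattle, with single changes from −3.61 to −0.94. It was 3.099-fold lower, with the middle level a bound on 2 of 9 arrays, and −1.96 relative to the median change of all probes. From the middle to the late stage ARNTL rose by 1.65 ± 0.21 (limma adjusted *P* = 1.73e-06), higher in 9 of 9 cattle, from 1.02 to 3.46 in single animals, and 1.92 relative to all probes. Its groups did not overlap in either period, which held for 1 of the 8 members, against 13.01% of all probes in the first period and 20.70% in the second. In the total period the ranges of no member were separate, against 6.550% of all probes. The late level of ARNTL differed from the early level by 0.02 ± 0.21 (limma adjusted *P* = 0.964), with 4 cattle higher and 5 lower, so the order was middle below early and late, and the latter 2 did not differ beyond their spread.

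Animal 4 had the lowest middle value, on an array where the probe was not well above background; without this animal the first-period change of ARNTL was −1.38 and the second-period change 1.43. Slide 2 held 1 early array and 7 middle arrays. On it the early value of ARNTL was 0.97 and the middle values ran from −2.36 to 0.25, with a difference of −1.36 ± 0.80 (limma adjusted *P* = 0.354). When slide was a fixed term the change was −1.36 ± 0.93 (adjusted *P* = 0.383), an estimate that rests on the same single early array, and when slide was a random block it was −1.61 ± 0.34 (adjusted *P* = 0.00111). The first scan day held all 9 early and 7 middle arrays, and within it ARNTL fell by 1.64 ± 0.30 (limma adjusted *P* = 0.00231). On that day 8 of the 9 early arrays were on slide 1 and all 7 middle arrays on slide 2, so this fit removes no slide effect. No slide or scan day held both middle and late arrays, so for the second period only the random block could be fitted, with 1.61 ± 0.38 (adjusted *P* = 0.00214). That contrast lies wholly between slides. The fit cannot separate slide from stage, and its *P* cannot be read as allowing for a slide effect.

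NPAS2, the paralogue of CLOCK that can replace it as the partner of ARNTL, did not follow ARNTL. Its level was lowest at −2.28, median −1.88 and highest at −1.66 at the early stage. The middle values were −2.19, −1.36 and −0.08, and the late values −1.81, −1.54 and −1.02. The middle stage had the widest range and overlapped both other stages. The probe was dim, with intensities of 5.16 to 17.0 over all arrays. It was well above background on 9, 5 and 9 arrays at the early, middle and late stages. The middle level is thus partly a bound, and with it the changes to and from the middle stage.

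NPAS2 rose by 0.71 ± 0.16 in the first period (limma adjusted *P* = 7.69e-04), in 8 of 9 cattle. Relative to all probes this was 0.39, and it was smaller than the 1.33 of the probes never above background. Cyclic loess normalization turned its direction, with −0.42 (limma adjusted *P* = 0.00813), and the call was lost with the slide as a random block, at 0.60 (limma adjusted *P* = 0.0580). With slide as a fixed term the change was 0.30, and on slide 2 alone 0.55. Both of these rest on 1 early array and cannot decide the call. In the second period NPAS2 had −0.30 ± 0.16 (limma adjusted *P* = 0.0978), with 6 cattle lower. This call depends on the scaling, with −0.49 by the 75th percentile (adjusted *P* = 0.0191), like values by bright probes and in the values of the authors, −0.23 by normexp (0.00354) and 0.97 by cyclic loess (2.63e-06). In the total period NPAS2 had 0.41 ± 0.16 (limma adjusted *P* = 0.0781), with 8 cattle higher. It was called under 4 of 12 alternatives, the methods' t-test (adjusted *P* = 0.00580), limma on the 2 stages alone (0.00555), cyclic loess (0.00590) and quantile normalization (0.0474). The 2 activators measured thus had changes of opposite sign in the first period, except with cyclic loess, where both were below 0.

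PER1, the period gene that also responds quickly to glucocorticoids and cAMP, was bright on every array. Its early level was lowest at 5.28, median 6.10 and highest at 6.61. It was 5.57, 6.35 and 6.96 at the middle stage and 5.23, 5.65 and 6.35 at the late stage. All 3 ranges overlapped. The first-period change was 0.32 ± 0.21 (limma adjusted *P* = 0.173), higher in 6 of 9 cattle. It stood beside a shift of 0.32 for all probes and 0.08 for those bright on every array. In the second period the probes bright on every array had a median change of 0.10. PER1, which is 1 of them, fell by 0.61 ± 0.21 (limma adjusted *P* = 0.0130), in 8 of 9 cattle, or −0.34 relative to all probes. Normexp background correction gave 0.29 in place of this fall (adjusted *P* = 0.488), and a random block for slide −0.73 (adjusted *P* = 0.0664). Between the early and late stages PER1 differed by −0.28 ± 0.21 (limma adjusted *P* = 0.371).

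PER2, the period protein that scaffolds the repressor complex, was dim. Its early level was −2.70, −1.99 and −0.79 as lowest, median and highest, the middle level −2.93, −1.65 and −0.55, and the late level −4.19, −2.85 and −1.95. Late values were the lowest as a group, but all ranges overlapped. The probe was well above background on 9 early, 5 middle and 5 late arrays, so the late level is partly a bound. PER2 had 0.31 ± 0.27 in the first period (limma adjusted *P* = 0.310), with 4 cattle higher and 5 lower; normexp called 0.18 (adjusted *P* = 0.0110), cyclic loess called −1.08, and slide as a fixed term gave 2.38 with no call (0.1495).

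In the second period PER2 fell by 1.22 ± 0.27 (limma adjusted *P* = 4.74e-04), in 8 of 9 cattle, and −0.95 relative to all probes; cyclic loess gave 0.36 (adjusted *P* = 0.173). In the total period it fell by 0.91 ± 0.27 (limma adjusted *P* = 0.0211), in 7 of 9 cattle. In this fit it was the single clock gene called between the early and late stages, where arrays had like brightness, and its sign held under all 12 alternatives. Some of these could not turn the sign, since with dim probes removed or no replicate block the change stayed at −0.91. The call held under 9 of the 12 and was lost with quantile normalization (−0.70, adjusted *P* = 0.113), normexp (−0.17, 0.0820) and the slide as a random block (−0.68, 0.626). It was also lost when animal 1, 6 or 8 was left out, with changes of −0.84, −0.81 and −0.83 (adjusted *P* = 0.0645, 0.0696 and 0.0580).

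PER3, a period gene of less certain role in the core loop, had larger changes in the first 2 periods than PER1 and PER2, though not under all alternatives. Its level was −2.59, −2.06 and −1.37 at the early stage, −1.67, −1.06 and 0.08 at the middle stage, and −3.87, −2.54 and −1.29 at the late stage. The middle values were the highest as a group and overlapped the upper early and late values. Arrays with the probe well above background numbered 8, 7 and 4, so the late level is mostly a bound, and with it the changes to the late stage.

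PER3 rose by 1.01 ± 0.27 in the first period (limma adjusted *P* = 0.00342), in 9 of 9 cattle, a 2.01-fold difference and 0.68 relative to all probes. This was below the shift of probes never above background, and cyclic loess gave −0.24 (adjusted *P* = 0.443). On slide 2 the single early array had −2.59 and the 7 middle arrays −1.58 to 0.08, a larger difference of 1.81 that rests on 1 early array and was not called (adjusted *P* = 0.194), and neither was 1.93 with slide as a fixed term (0.159). From the middle to the late stage PER3 fell by 1.60 ± 0.27 (limma adjusted *P* = 4.32e-05), in 8 of 9 cattle, and −1.33 relative to all probes; the sign held under all 11 alternatives, and with cyclic loess the value was −0.20 (adjusted *P* = 0.522). The late level differed from the early level by −0.59 ± 0.27 (limma adjusted *P* = 0.139).

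CRY1, the cryptochrome that inhibits the activator dimer most directly, had an early level of −0.71, −0.24 and 0.19, a middle level of −1.94, −0.78 and −0.35, and a late level of −1.27, −0.62 and −0.08. Early values were the highest as a group, with overlap between all stages. Arrays with the probe well above background numbered 9, 7 and 9. CRY1 fell by 0.53 ± 0.16 in the first period (limma adjusted *P* = 0.00578), in 8 of 9 cattle, the same direction as ARNTL, and −0.86 relative to all probes. The sign held under all 16 alternatives, and the call was lost with normexp (−0.08, adjusted *P* = 0.116), with slide as a fixed term (−1.39 ± 0.51, 0.0982) and on slide 2 alone with its 1 early array (−0.23, 0.756). From the middle to the late stage CRY1 had 0.17 ± 0.16 (limma adjusted *P* = 0.350), which cyclic loess made 1.01 and called (adjusted *P* = 3.35e-05), and in the total period −0.37 ± 0.16 (limma adjusted *P* = 0.106), with 8 cattle lower. The total change was called by the methods' t-test (adjusted *P* = 0.0312) and by limma on the 2 stages alone (0.0247).

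NR1D1, the nuclear receptor that represses ARNTL, had levels of −2.43 to −1.12 on early arrays, −2.56 to −0.20 on middle arrays and −2.64 to −1.44 on late arrays. The medians were −2.02, −2.14 and −1.86. The ranges overlapped throughout. It was well above background on 9, 4 and 9 arrays, so most middle arrays give a bound. Its changes of 0.08 ± 0.22, −0.02 ± 0.22 and 0.06 ± 0.22 in the first, second and total periods were not called (limma adjusted *P* = 0.748, 0.935 and 0.891). Cyclic loess instead called −1.19 (adjusted *P* = 2.14e-05) in the first period and 1.42 (adjusted *P* = 1.81e-06) in the second, and normexp called 0.18 (adjusted *P* = 0.0274) and −0.21 (adjusted *P* = 0.00901), of the other sign.

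DBP, an output transcription factor driven directly by the activator dimer, varied least among cattle. Its level was 6.42, 6.64 and 6.78 at the early stage, 6.26, 6.88 and 7.13 at the middle stage, and 6.60, 6.78 and 7.21 at the late stage. Each of the 27 arrays had it well above background, and the 3 ranges overlapped. The changes were 0.19 ± 0.10, 0.01 ± 0.10 and 0.21 ± 0.10 (limma adjusted *P* = 0.0947, 0.915 and 0.161), the smallest standard errors of the 8 genes. Scaling by the 75th percentile called the first of these, at 0.26 (adjusted *P* = 0.0284), as did scaling by bright probes (0.25, 0.0364) and the values of the authors (0.26, 0.0282), and normexp called 0.86 in the second period (adjusted *P* = 0.00770).

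**Figure D2:**
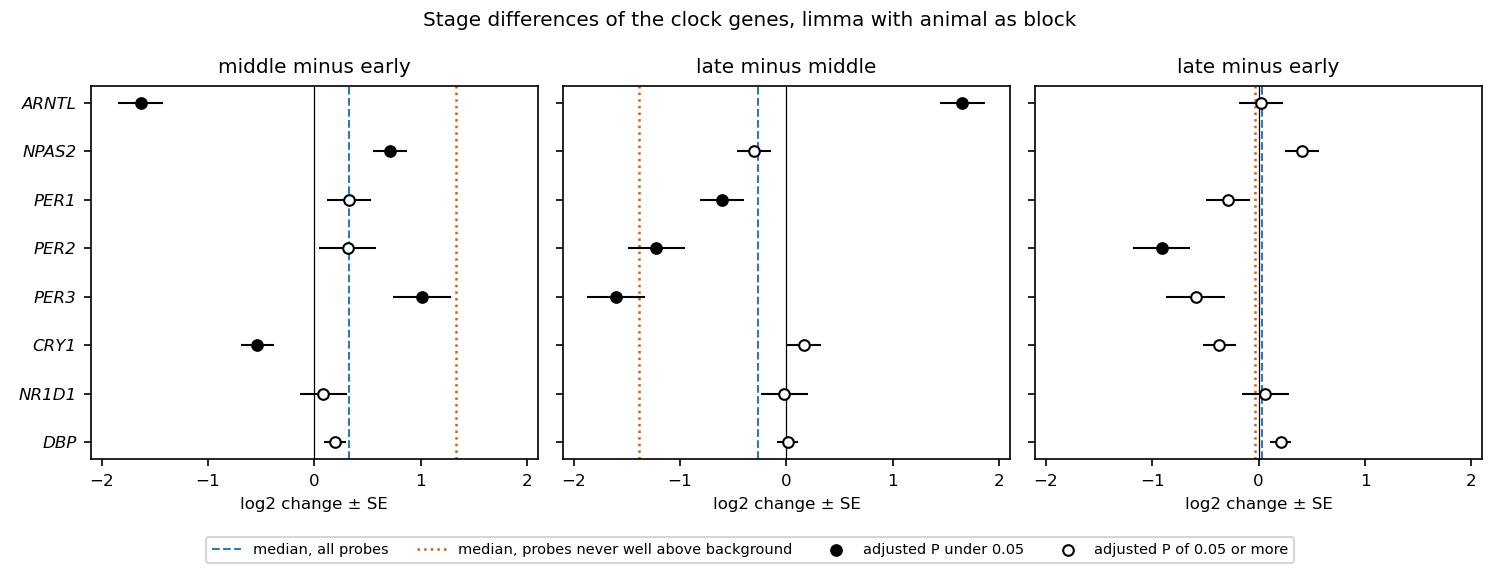
Log2 change (x axis, bars are SE from limma, n = 9 cattle) of the 8 clock genes (y axis) in the 3 comparisons. Filled points have an adjusted *P* under 0.05, the dashed line is the median change of all probes and the dotted line that of the 2040 probes never well above background; ARNTL lies at −1.63 in the first period and at 1.65 in the second, on the side opposite to the dotted line.

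Whether the arms of the clock moved in opposite directions was tested within animals, as the change of an activator minus the change of another member. Such a difference does not depend on the factor by which an array is scaled. Of 21 pairs, 12 could be measured (ARNTL or NPAS2 with PER1, PER2, PER3, CRY1, NR1D1 or DBP), which gave 36 exact two-sided sign-flip tests in 3 periods, adjusted together; 0.0039 is the smallest *P* that 9 cattle allow. A pair was counted as moving apart where its difference had an adjusted *P* under 0.05 and the mean changes had opposite signs.

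In the first period 9 of 12 differences passed and 6 pairs moved apart. How many other pairs of probes would do so was not computed, and with the shares of probes called in each direction these counts are no result about the clock as a group. The change of ARNTL lay below that of each of the 6 others. Its change minus that of PER3 was −5.77, −2.28 and −1.54 as lowest, median and highest of the 9 cattle, with a mean of −2.64 ± 1.26 (SD, n = 9, exact *P* = 0.0039, adjusted *P* = 0.0100). Against DBP it was −4.07, −1.81 and −0.89, with a mean of −1.83 ± 0.96 (SD, n = 9, exact *P* = 0.0039). All 9 cattle had ARNTL below PER1, PER2, PER3, NR1D1 and DBP in this sense, and 8 of 9 below CRY1, for which the mean difference was −1.097 ± 1.09 (SD, n = 9, exact *P* = 0.0078, adjusted *P* = 0.0176). ARNTL and CRY1 both fell, so this pair differed in size and not in direction. The large fall of ARNTL enters all 6 of its differences, and the changes of PER1, PER2, NR1D1 and DBP were not called, so for these pairs the opposite sign rests on changes that depend on the scaling. Opposite signs were seen in 9 of 9 cattle with PER3, 7 with DBP, 6 with PER1 and 4 each with PER2 and NR1D1.

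NPAS2 gave the reverse picture in the first period. Its difference from CRY1 was 0.50, 1.23 and 1.99 as lowest, median and highest, above 0 in 9 of 9 cattle (exact *P* = 0.0039, adjusted *P* = 0.0100), and this was its single pair that moved apart. Against NR1D1 and DBP the mean differences were 0.63 (exact adjusted *P* = 0.0313) and 0.52 (exact adjusted *P* = 0.0489), with changes of the same sign. Against PER1, PER2 and PER3 they were 0.39, 0.40 and −0.30, and did not pass (exact adjusted *P* = 0.233, 0.223 and 0.223). With cyclic loess the NPAS2 differences from DBP and PER1 turned, to −0.60 and −0.74, and passed (exact adjusted *P* = 0.0402 and 0.045). Both pairs then moved apart. With normexp the NPAS2 difference from DBP was 0.72 and did not pass (exact adjusted *P* = 0.0984).

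In the second period 9 of 12 differences passed and 5 pairs moved apart. ARNTL was above each of the 6 others in 9 of 9 cattle (exact *P* = 0.0039 for each, adjusted *P* = 0.0100). The means were 3.26 ± 1.44 against PER3, 2.88 ± 1.495 against PER2, 2.26 ± 0.91 against PER1, 1.67 ± 1.30 against NR1D1, 1.64 ± 0.72 against DBP and 1.49 ± 1.12 against CRY1 (SD, n = 9). For 4 of these, PER1, PER2, PER3 and NR1D1, the mean changes had opposite signs, that of NR1D1 by a value near 0 (−0.02) and in 4 of 9 cattle. NPAS2 was below CRY1 by a mean of −0.47 (exact adjusted *P* = 0.0384) and above PER2 and PER3 by 0.92 and 1.30 (exact adjusted *P* = 0.0100 and 0.0352). Keeping outlier spots or taking the values of the authors left these differences as they were, so 3 other ways of making the values could test them. Signs did depend on the values of the authors, where ARNTL also moved apart from CRY1 and DBP in the second period and NPAS2 no longer did from CRY1. In both periods the differences of ARNTL from PER2 and PER3 passed under all 3. With normexp those from PER1 were −0.37 and 0.39 in the first and second periods and did not pass. Those from DBP did not pass with normexp either, at −0.21 and, with the sign turned, −0.19. With quantile normalization those from NR1D1 kept their sign but did not pass, at −1.27 and 1.12 (exact adjusted *P* = 0.0703 and 0.0804). The difference from CRY1 was lost with quantile normalization in the first period, at a like size of −1.02 (exact adjusted *P* = 0.0527), and that from NR1D1 with cyclic loess in the second, at 0.58 (0.154). Cyclic loess also ended the opposite signs of ARNTL with PER2, PER3 and NR1D1 and of NPAS2 with CRY1 in the first period, and of ARNTL with PER2 in the second. The second-period difference of NPAS2 from CRY1 lost its call with quantile normalization, at −0.50 (exact adjusted *P* = 0.0729), and was −0.04 with cyclic loess (0.872). In that period NPAS2 moved apart from PER1, PER3 and DBP with cyclic loess (1.77, 1.16 and 1.14), and from DBP with normexp (−1.09). With single cattle left out, all 12 differences of ARNTL in the first 2 periods passed each of 9 times. Those of NPAS2 from DBP in the first period and from CRY1 and PER3 in the second passed in 1 of 9, and that from NR1D1 in the first in 3 of 9, with the sign unchanged.

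In the total period 5 of 12 differences passed and 4 pairs moved apart, or 2 to 7 when single cattle were left out. They were ARNTL and NPAS2 with PER2, at 0.93 (exact adjusted *P* = 0.0352) and 1.32 (0.0248), and with CRY1, at 0.39 (0.0384) and 0.78 (0.0100). For ARNTL its own change was 0.02, so the sign rests on a value near 0 and turned in the values of the authors. Both of its pairs were lost with quantile normalization, cyclic loess and normexp. The difference from PER2 was 0.69, 0.73 and 0.19 in that order (exact adjusted *P* = 0.053, 0.052 and 0.275). That from CRY1 was 0.34, 0.31 and 0.14 (exact adjusted *P* = 0.056, 0.055 and 0.319). The pair of NPAS2 with CRY1 was lost with normexp, at 0.17 (exact adjusted *P* = 0.121). With single cattle left out, the differences of ARNTL from PER2 and CRY1 passed in 3 and 2 of 9. As counts with no test, the mean change of the 2 activators was below that of the 6 other members in 8 of 9 cattle in the first period, above it in 9 of 9 in the second and above it in 8 of 9 in the total period. The mean of the activators and that of the others had opposite signs in 5, 8 and 7 of 9 cattle. In the first period the activator mean rests on ARNTL (−1.63), since NPAS2 rose by 0.71. In the second it again rests on ARNTL (1.65), since NPAS2 had −0.30. In the total period it rests on NPAS2 (0.41), with ARNTL at 0.02.

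**Figure D3:**
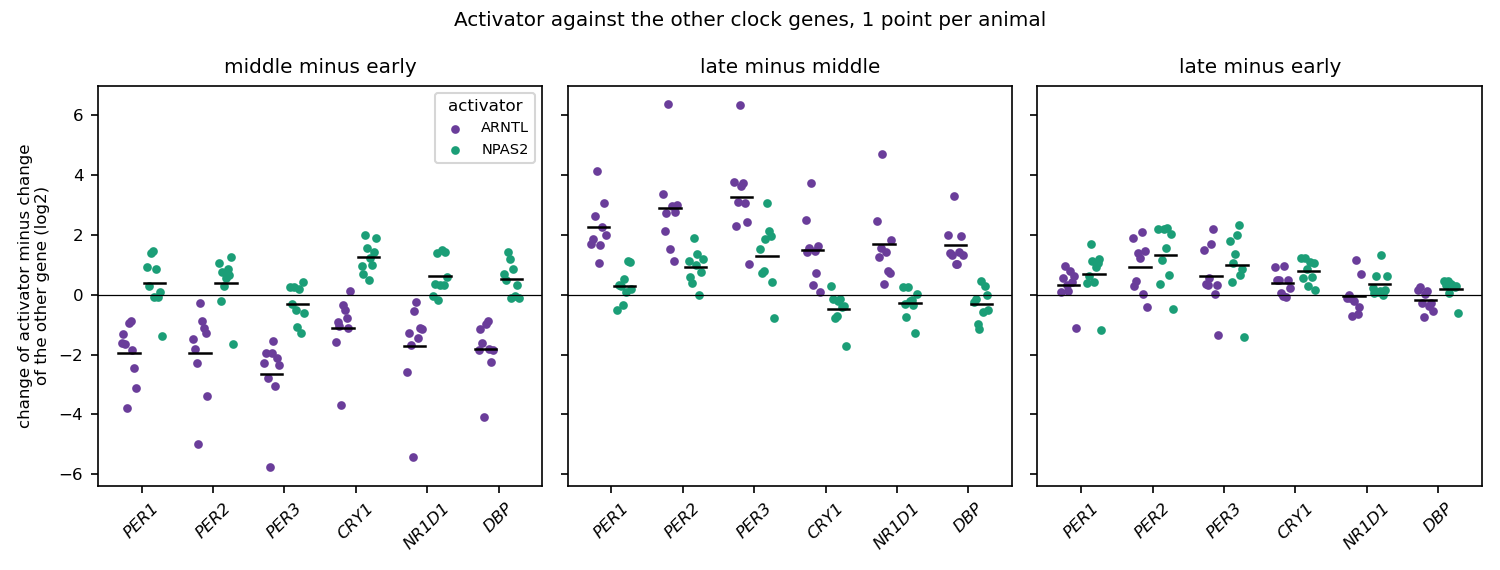
Change of an activator (ARNTL purple, NPAS2 green) minus the change of another clock gene (x axis), in log2 units (y axis), for each of 9 cattle and the 3 comparisons. Black bars are means; the ARNTL points lie below 0 for 5 of 6 genes in all cattle in the first period and above 0 for 6 of 6 in the second.

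Among cattle of a stage, ARNTL was set against each of the 7 other members, which gave 21 relations over 9 arrays each. By exact permutation 1 of 21 Pearson correlations had an unadjusted *P* under 0.05, and 0 had an adjusted one; Spearman correlations gave 1 and 0. The lowest Pearson *P* was that of PER1 at the early stage, with r = 0.72 (exact *P* = 0.0278, adjusted *P* = 0.371) and rho = 0.68 (exact *P* = 0.0503, adjusted *P* = 0.528), and r = 0.90 without the 2 arrays farthest from the ARNTL median. With quantile normalization it had r = 0.63 (exact *P* = 0.07003), and the single Pearson *P* under 0.05 was that of NPAS2 at the middle stage (r = −0.67, exact *P* = 0.0379, adjusted *P* = 0.422). At the late stage PER3 had rho = −0.77 (exact *P* = 0.0214, adjusted *P* = 0.449) and r = −0.42 (exact *P* = 0.263, adjusted *P* = 0.536), or r = −0.59 without 2 arrays. NR1D1 at the middle stage had r = −0.71 (exact *P* = 0.0782, adjusted *P* = 0.371) and rho = −0.07 (exact *P* = 0.880, adjusted *P* = 0.972), and r fell to −0.10 without 2 arrays, so it rests on them. Of the 9 early arrays 8 shared a slide, and all 9 shared a scan day.

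**Figure D4:**
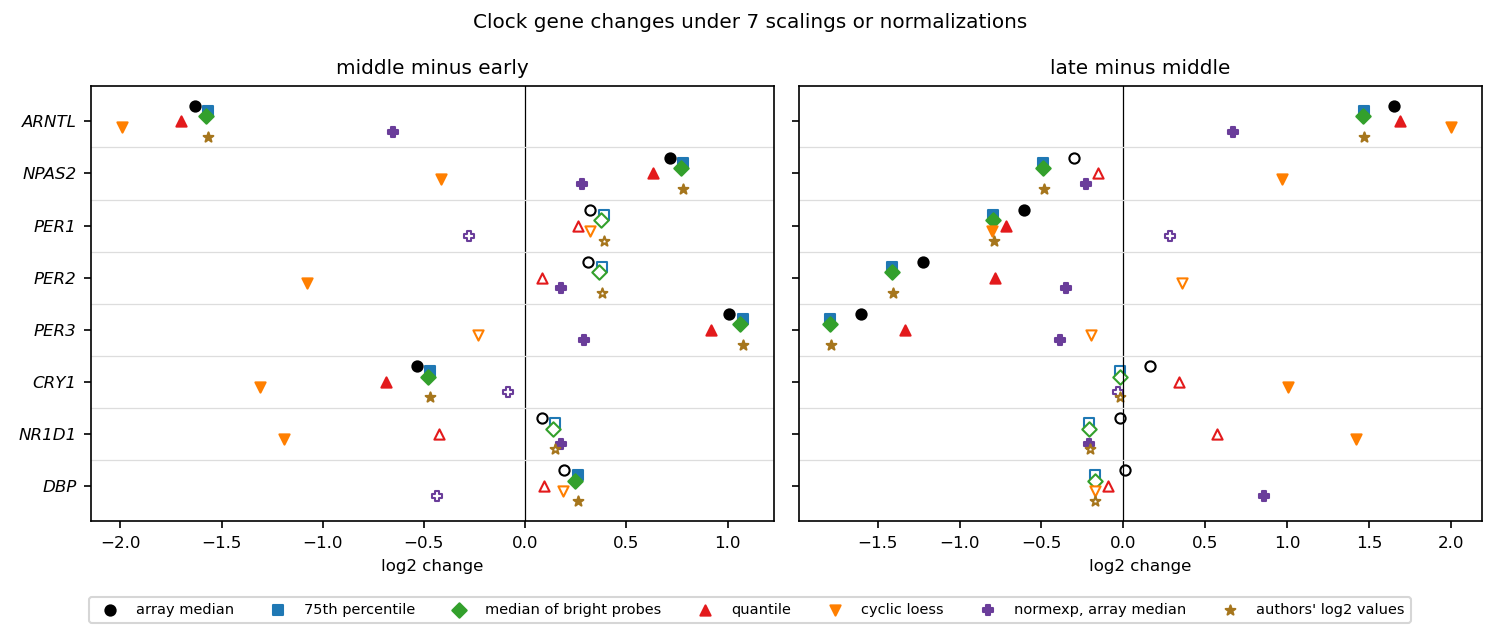
Log2 change (x axis) of the 8 clock genes (y axis) in the first and second periods under 7 scalings or normalizations of the same arrays, filled where the adjusted *P* is under 0.05. ARNTL keeps its sign and its call under all 7, while cyclic loess (orange) moves NPAS2, PER2, PER3 and NR1D1 by the most and normexp (purple) draws most changes of dim genes towards 0.

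How far each change rests on the scaling, the blocks for slide and scan day, the arrays used and the test differed by member. ARNTL ranged from −1.99 to −0.65 over 16 alternatives in the first period, all 16 below 0 and 14 called (the 2 others being slide as a fixed term and slide 2 alone), and from 0.67 to 2.00 over 12 in the second, all called. The 2 not called in the first period are the fits that compare the stages within a slide, and both rest on 1 early array. None of the 12 in the second period could separate slide from stage. PER2 ranged from −1.41 to 0.36 in the second period, with 11 of 12 called. NR1D1 ranged from −1.19 (cyclic loess) to 0.71 (slide as a fixed term) in the first period, with 13 of 16 above 0 and 2 called. Directions of the period genes in the first period were turned by cyclic loess for PER2 (−1.08, adjusted *P* = 5.94e-04) and PER3, and by normexp for PER1 (−0.28).

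Genes whose level over arrays was most like DBP or ARNTL were sought among the 6797 probes bright on every array. For DBP they were LDLRAD2, MESDC1 (now TLNRD1) and RASA4 (Pearson r = 0.88, 0.88 and 0.84 over 27 arrays). For ARNTL, over the 25 arrays on which it was well above background, a choice made after its values were seen, they were VPS25, ZDHHC4 and NDUFS1 (r = 0.95, 0.95 and 0.94). These values span 3 stages that differ as groups, and are a description only.

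The other genes of the clock were taken as a list of 35 names, of which 33 had a probe. In the first period 16 rose and 4 fell, against 45.26% and 21.28% of all probes, with a median change of 0.38 beside 0.32. In the second 9 rose and 17 fell, against 26.96% and 44.56% (median −0.40 beside −0.27), and in the total period 2 rose and 3 fell, against 11.19% and 8.929% (median 0.01 beside 0.03). The count of genes that rose in the first period is thus near that of all probes. Quantile normalization gave 10 rising in the first period (24.5% of all probes) and 10 falling in the second (25.7%), and cyclic loess gave 5 rising and 18 falling in the first period (14.9% and 56.2%), so these counts go with those of all probes.

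NFIL3, the repressor that binds the same D-box elements as DBP, was bright on all 27 arrays and moved like ARNTL. It fell by 1.46 ± 0.22 in the first period (limma adjusted *P* = 2.13e-05) in 9 of 9 cattle and rose by 1.75 ± 0.22 in the second (limma adjusted *P* = 1.55e-06) in 9 of 9. Its middle values did not overlap those of the other stages. RORA, the nuclear receptor that activates ARNTL where NR1D1 represses it, moved the other way, rising by 0.61 ± 0.15 (limma adjusted *P* = 0.00154) and then falling by 0.60 ± 0.15 (limma adjusted *P* = 0.00136); with normexp both calls were lost. SFPQ and NONO, which are PER-associated RNA-binding proteins and partners of each other, changed in opposite directions. SFPQ rose by 1.77 ± 0.18 and then fell by 2.25 ± 0.18, and NONO fell by 1.38 ± 0.24 and then rose by 1.47 ± 0.24.

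Further large changes were those of CREB1 (0.97 and −1.14), TIPIN (0.80 in the first period) and NAMPT, the rate-limiting enzyme of NAD salvage and a known clock target (−1.57 in the second period). In late against early arrays NAMPT fell by 0.80 ± 0.20 (limma adjusted *P* = 0.00653) and was lower in 9 of 9 cattle. FBXL21 and SIRT1 rose by 0.54 and 0.52, and PRMT5 and PRKAA1 fell by 0.41 and 0.37, all in the total period; of 8 alternatives chosen after the data had been seen, 6 kept the call of FBXL21, 4 that of SIRT1 and 7 each those of PRMT5 and PRKAA1. CSNK1D, a kinase of the PER proteins, rose by 0.41 ± 0.13 in the second period (limma adjusted *P* = 0.00722), and its paralogue CSNK1E was not called. NR1D2, the paralogue of NR1D1, had −0.27, −0.12 and −0.39, and BHLHE40 0.09, −0.12 and −0.03, none called. BHLHE41 had 0.39, 0.35 and 0.74, the last with a limma adjusted *P* of 0.0752. HLF was well above background on no array, ARNTL2 on 1 late array, and TEF on 5 early and 1 late arrays, so DBP was the 1 member of its family of 3 with a level on every array.

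Genes that respond to glucocorticoids or to acute stimulation, which act on PER1 and PER2 in other systems, were called in both directions. Of 12 glucocorticoid genes 11 had a probe. In the first period 3 rose and 4 fell (all probes 45.26% and 21.28%), and in the second 4 rose and 1 fell (26.96% and 44.56%). In the total period 0 were called by limma in either direction (all probes 11.19% higher and 8.929% lower). The 3 that rose in the first period were dim at every stage. DUSP1 fell by 1.38 ± 0.23 and then rose by 1.88 ± 0.23, ERRFI1 fell by 1.36 ± 0.30 and then rose by 1.65 ± 0.30, ZBTB16 fell by 0.59 and then rose by 0.56, SGK1 fell by 0.51 in the first period and HSD11B2 rose by 0.73 in the second. Of 16 immediate early genes 15 had a probe; 5 rose and 6 fell in the first period, 6 rose and 6 fell in the second, and 2 rose in the total period, to be read against the same shares of all probes. FOS fell by 1.75 ± 0.32 and then rose by 1.28 ± 0.32. IER5 fell by 1.42 and then rose by 1.13, and BTG2 fell by 1.08 and then rose by 1.12. Over 8 alternatives IER5 ran from −1.83 to −0.45 and then from 0.38 to 1.55. BTG2 ran from −1.76 to −0.20 and then from 0.23 to 1.86. All 8 kept these calls. MYC fell by 0.56 in the first period, JUND rose by 0.86 and then fell by 0.68, and JUN fell by 0.94 in the second. Between the early and late stages EGR1 rose by 0.97 ± 0.22 (limma adjusted *P* = 0.00437), with 0.12 to 1.14 over 8 alternatives, of which 7 kept the call. IER2 rose by 0.38 ± 0.10 (limma adjusted *P* = 0.0116), with −0.02 when outlier spots were kept and −0.14 in the values of the authors. For IER2, 1 of 7 alternatives kept the call. The part of these 2 lists of genes in the clock genes' changes was not tested.

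The samples are labelled rumen epithelium, while the extract protocol in the labels also names neutrophils and liver. The label of the tissue was checked against markers. Of 19 stratified epithelium markers 18 had a probe, and 16 were bright on every array, KRT6A with the highest signal; KRT4 was well above background on none. Their summed level, in multiples of the array median, was 4151 to 5400 on early, 1449 to 5596 on middle and 4563 to 5582 on late arrays. The middle median of 2788 was lower than the 5076 and 4960 of the early and late stages, with overlap. Bright keratins weigh most in this sum, and single markers went both ways in the first period, with 3 higher and 9 lower of the 17 bright at some stage (all probes 45.26% and 21.28%, probes bright at some stage 31.4% and 31.2%), KRT6A at −1.28 and JUP at 0.56. Red blood cell markers, led by HBA, went the other way, with sums of 39.0 to 68.4, 105 to 199 and 44.9 to 90.1, and the middle stage did not overlap the others. HBA was the single one of 6 measured that was well above background on all arrays. HBB was so on 1 early, 0 middle and 1 late arrays, and these sums rest mostly on the HBA probe.

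Smooth muscle markers (8 of 9 measured, led by ACTA2) had median sums of 179, 330 and 148, and fibroblast markers (8 of 9, led by COL1A2) 279, 458 and 288. Endothelium markers (7 of 7, led by CLDN5, with CDH5 well above background on no array) had 52.6, 66.7 and 57.2, and leukocyte markers (14 of 14, led by CSF1R, with CD4 and ITGAM on no array) 65.8, 70.4 and 76.2. The lower sum of epithelial markers and the higher sum of red blood cell markers, led by HBA, thus stood beside the low ARNTL at the middle stage. So did the higher median sums of smooth muscle and fibroblast markers, whose ranges overlapped between stages. Single fibroblast markers went both ways in the first period, with 2 higher and 1 lower of 8 by limma. LUM, 1 of the 8, had a mean level of 2.27 on early, 1.15 on middle and 2.77 on late arrays. Of the 8 smooth muscle markers 5 were higher and 0 lower in that period (all probes 45.26% and 21.28%). The part of these markers in the low ARNTL was not tested.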

How the data were processed

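The deposited scanner text files of the authors hold processed intensity, and their deposited series matrix holds log2 values; the flags for outlier spots and for signal well above background are the scanner software's, as deposited by the authors. File headers name Feature Extraction 11.0.1.1, and the methods name 9.5. Of 15646 spots 15110 were not controls, which gave 15008 probes after spots of a probe were averaged. Values were log2 of processed intensity minus the array median, with outlier spots missing. The columns of the series matrix differed from scaling by the 75th percentile by a near constant shift. Probe names were used as given; 11194 were matched to a gene table of a later assembly, for names only.

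Stages were compared with limma (3.58.1, with statmod 1.5.0 in R 4.3.3; files were read by data.table, version 1.17.8), with the animal as block, and *P* was adjusted over all 15008 probes by Benjamini-Hochberg; calls use 0.05, and a 2-fold threshold applies only where named. The methods' t-test is the paired t-test of the authors' methods. Pairs of activator and other members were tested by exact sign flips over 9 cattle, and relations by exact permutation. The middle arrays are shared by the first and second comparisons, and the early and late arrays by the total comparison and 1 of the others. As a check of pairing, arrays of the same animal at different stages, as deviations from the stage mean, had a mean correlation of 0.158 (−0.151 to 0.461, above 0 in 24 of 27), and those of different animals −0.020. No 2 arrays were identical. Precision is limited by 9 arrays per stage and by signal over background. Members and lists were chosen with earlier results of these data known. Of each list and comparison, up to 5 called genes with the largest change that every array of some stage had well above background are named, and so are paralogues and regulators of the clock taken from a set of names in the plan, RORA, CSNK1D and BHLHE40 among them, whatever their values. The alternatives for these genes, and the 25 arrays for ARNTL likeness, were chosen after the data had been seen.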

Additional observations from a re-analysis of the deposited data

Results flagged for a closer look

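A value was marked when its gap to the nearest value, as a share of the range of the 9 arrays of a gene and stage, was above the 95% critical value of Dixon for 9 values, which chance alone passes in about 1 of 20 groups. Of 24 groups 4 were marked, each with 1 value far from the other 8. ARNTL at the middle stage was −2.36 in animal 4, where the nearest value was −0.67 (ratio 0.648) and the probe was not well above background. ARNTL at the late stage was 1.92 in animal 1, with the nearest at 1.34 (ratio 0.586). CRY1 at the middle stage was −1.94 in animal 9, with the nearest at −0.92 (ratio 0.640), again on an array where the probe was not well above background. NR1D1 at the late stage was −2.64 in animal 9, with the nearest at −2.05 (ratio 0.497). The cause of none of these was tested, and all 4 values stayed in the fits.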

How the results depend on the processing

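With no replicate block, that is without pairing by animal, ARNTL changed by −1.63 and 1.65 in the first and second periods, and the counts of members called were unchanged (2 higher and 2 lower, 1 and 3, 0 and 1). In the first period, members higher (2) became 0 with cyclic loess, slide as a fixed term or slide 2 alone, 1 with dim probes removed or the slide as a random block, 3 with the 75th percentile, bright probes or series matrix values, and 4 with normexp; members lower (2) became 5 with cyclic loess, 1 with normexp and 0 with slide as a fixed term or slide 2 alone. In the second, members higher (1) became 4 with cyclic loess and 2 with normexp, and members lower (3) became 1 with cyclic loess, 2 with dim probes removed or the slide as a random block, and 4 with the 75th percentile, bright probes, series matrix values or normexp. In the total period, members higher (0) became 1 with quantile normalization, cyclic loess, the methods' t-test or 2 stages in the fit; members lower (1) became 0 with quantile normalization, normexp or the slide as a random block, 2 with the methods' t-test or 2 stages in the fit, and 0 to 3 when single cattle were left out. The first-period ARNTL change was −1.36 with slide as a fixed term and −1.36 on slide 2 alone, where the lone early array is assumed to vary like the others. Its total change turned to −0.10 (75th percentile), −0.11 (bright probes), −0.0110 (quantile) and −0.10 (series matrix values), and ran from −0.0239 to 0.0768 when single cattle were left out. Cyclic loess turned NPAS2 to −0.42 and 0.97 and PER2 to −1.08 and 0.36 in the first and second periods, and PER3 to −0.24 in the first; normexp turned PER1 to −0.28, 0.29 and 0.00734 in the 3 periods. CRY1 in the second period turned to −0.0214 with the 75th percentile, −0.0228 with bright probes, −0.0189 with series matrix values and −0.0323 with normexp. NR1D1 turned to −0.43 (quantile), −1.19 (cyclic loess) and −0.0435 (slide as a random block) in the first period, to 0.57 and 1.42 (quantile and cyclic loess) in the second, and to −0.0580 (75th percentile), −0.0707 (bright probes), −0.0321 (normexp), −0.0558 (series matrix values) and −0.0512 (slide as a random block) in the total period; with single cattle left out it ran from −0.13 to 0.19, −0.14 to 0.13 and −0.00166 to 0.17. DBP turned to −0.44 with normexp in the first period and, in the second, to −0.17 (75th percentile), −0.18 (bright probes), −0.0914 (quantile), −0.17 (cyclic loess), −0.17 (series matrix values) and −0.00845 (slide as a random block), with −0.0378 to 0.0522 when single cattle were left out. Other clock genes higher and lower in the first period (16 and 4) became 10 higher with quantile normalization (24.5% of all probes), and 5 and 18 with cyclic loess (14.9% and 56.2%); in the second (9 and 17), 4 higher with the 75th percentile (21.6%), 10 lower with quantile normalization (25.7%), and 17 and 9 with cyclic loess (59.0% and 16.9%); in the total period (2 and 3), 0 and 6 with the 75th percentile (6.65% and 12.9%), 1 higher with quantile normalization (7.13%) and 5 lower with cyclic loess (8.26%). Pairs moving apart (6, 5 and 4) were 6 to 6, 3 to 5 and 2 to 7 when single cattle were left out. Normexp turned SGK1 in the first period to 0.0419 and JUND in the second to 0.0367, and IER2 in the total period turned to −0.0184 with outlier spots kept and −0.14 with series matrix values. Late arrays shared no slide or scan day with the others, so the fixed blocks and the fits within a slide or scan day were run for the first period only; PER3 had no value with dim probes removed, and promoter motifs were not run. The cause was not tested.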
